A study of Mus musculus with 8 samples.

Results

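The 10 genes described here are genes whose products are known from the retinal pigment epithelium, the sheet of pigmented cells behind the retina, and they were followed in RNA of lens fiber cells (FC), which do not belong to that tissue. They are 10 of the 35275 genes that the deposited file lists. Of these 10 genes, 4 (Rpe65, Rgr, Rlbp1 and Ttr) were selected on their rise in libraries of cigarette smoke (CS)-exposed mice, the same libraries as used here, so that their difference between groups is given as a description and with no test. The other 6 (Rdh5, Best1, Pmel, Tyrp1, Dct and Mlana) were named for their known expression in pigmented cells, with earlier results of these data known, and of them all but Best1 could be tested. In all, 9 of the 10 genes reached an average of 0.1 FPKM over the 8 libraries, the minimum set for the comparison of 14277 genes. FPKM is a level corrected for gene length and library depth, and levels of different genes are set side by side only on this scale.

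Libraries of total RNA were made from lens FC of C57BL/6 mice (C57BL/6J in the study's methods), 4 from CS-exposed mice and 4 from untreated control (Ct) mice of the same age. The exposed mice were born to dams placed in a whole-body smoke chamber shortly before birth and spent 5 hours/day and 5 days/week there for 3.5 months, whereas Ct mice stayed in the animal facility. No genetic change or further agent was named for either group. Each library is 1 pool of the right eyes of 4 mice, with 2 pools of males and 2 of females in each group. The sex of a single pool was not given, so that p values measure the spread between pools, any difference between the sexes included. The FC had been parted from the lens epithelium by hand under a microscope, and no sort or gate removed other cells of the eye. By the steps of low FPKM values, which are worth 1 read each, the libraries held an estimated 18100000 to 23200000 fragments, and the mean depth of CS libraries was 1.07 times that of Ct libraries.

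Markers of lens FC were high in every library. The summed level of 9 lens fiber genes lay between 302600 and 321000 FPKM in the 8 libraries, and none of the 9 passed an unadjusted limma p of 0.05 between groups. The highest of them on this scale were Crybb2 and Cryaa, crystallins that make up the bulk of lens protein, with means of 147000 and 95140 FPKM. Against these levels the 10 pigment epithelium genes were traces, and the highest value of any of them in any library was 13.1 FPKM, for Ttr. Markers of the pigment epithelium were mixed, and Timp3, Mitf, Enpp2, Slc16a8 and Mertk had means of 30.1, 2.67, 0.836, 0.452 and 0.407 FPKM. Best1, which encodes bestrophin-1, a chloride channel of the basolateral membrane of the pigment epithelium, was listed at 0 FPKM in all 8 libraries, and Kcnj13, a potassium channel of the same cells, was listed above 0 in CS replicate 3 alone, at 0.153 FPKM. In RNA of whole pools, fewer cells of a type and less RNA per cell cannot be told apart.

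As background, photoreceptors detect light with cis-retinal, which light turns into the all-trans form, and the pigment epithelium turns it back in a series of steps called the visual cycle. Rpe65 encodes the isomerase of this cycle, Rdh5 a dehydrogenase that makes cis-retinal, Rlbp1 the protein that carries cis-retinoids (CRALBP), and Rgr an opsin of pigment epithelium and Müller glia that takes part in retinal isomerization. Ttr encodes transthyretin, a secreted carrier of thyroid hormone and of the retinol-binding protein, which in the eye is made by pigmented epithelia. The pigment epithelium also makes melanin, as do the melanocytes of the uvea and the pigmented layers of iris and ciliary body. In these cells Pmel forms the fibrils of the melanosome, Tyrp1 and Dct are enzymes of melanin synthesis next to tyrosinase, and Mlana is a protein of the melanosome membrane.

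Rpe65 (chr3:159599175-159625321, plus strand, GRCm38) had no overlap between groups. Its level was 0.0314, 0.1265, 0.188 and 0.1035 FPKM in Ct replicates 1 to 4 and 0.799, 0.865, 3.315 and 0.2885 FPKM in CS replicates 1 to 4. All CS libraries lay above all Ct libraries, and CS replicate 3 held 58.0% of the sum over the 8 libraries. These levels rest on 1, 4, 7 and 3 reads in Ct replicates 1 to 4 and on 27, 32, 109 and 10 reads in CS replicates 1 to 4. The exact Poisson interval (95%, counting error only) of the highest Ct library, 2.81 to 14.4 reads, overlapped that of CS replicate 4, 4.80 to 18.4 reads. The group means were 0.112 ± 0.0647 FPKM (SD, n = 4) in Ct and 1.32 ± 1.36 FPKM (SD, n = 4) in CS, a ratio of 11.7, and without CS replicate 3 the ratio was 5.79. On the log2(FPKM + 0.1) scale, which understates the change of low genes, the difference was 2.34 with an SE of 0.56.

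Rgr (chr14:37034909-37048964, minus strand) did not overlap between groups either, but the nearest libraries all but met. Its level was 0.394, 0.519, 0.311 and 0.2665 FPKM in Ct replicates 1 to 4 and 1.06, 0.522, 5.58 and 1.81 FPKM in CS replicates 1 to 4. CS replicate 2 thus lay level with Ct replicate 2, at 20 reads against 17, while CS replicate 3 stood 3.08 times above the next library. The ratio of group means was 6.02 and fell to 3.03 without CS replicate 3. The log2 difference was 1.85 with an SE of 0.54. A complete separation of this kind, with CS above Ct, was found for 1.6% of the 14277 genes, and since Rpe65 and Rgr were picked for their rise nothing is read from it.

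Rlbp1 (chr7:79374870-79387048, minus strand) and Ttr had 3 CS libraries above every Ct library. The level of Rlbp1 was 0.251, 0.0690, 0.352 and 0.276 FPKM in Ct replicates 1 to 4 and 0.753, 0.334, 3.45 and 0.756 FPKM in CS replicates 1 to 4, so that CS replicate 2 fell within the Ct range. For Ttr the values were 0.454, 0.208, 0.988 and 0.453 FPKM in Ct replicates 1 to 4 and 2.02, 0.959, 13.1 and 2.92 FPKM in CS replicates 1 to 4, and here too CS replicate 2 lay just under the highest Ct library. Ttr reached the most reads of any of the 10 genes, 327 in CS replicate 3, against 5 to 28 in the Ct libraries. Both genes followed each other closely over the libraries. The ratio of group means was 5.59 for Rlbp1, with a log2 difference of 1.70 and an SE of 0.57. It was 9.02 for Ttr, with a log2 difference of 2.44 and an SE of 0.64. Without CS replicate 3 the ratios were 2.59 and 3.74. Pearson's r between Rlbp1 and Ttr, on the log2 scale, was 0.98 over the 8 libraries, and the pairs among Rpe65, Rgr, Rlbp1 and Ttr ranged from 0.80 to 0.98. These libraries include both groups between which the 4 genes were selected to differ, and a gene with few reads carries counting error as well.

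Rdh5 (chr10:128913593-128922888, minus strand), the member of the visual cycle that was not selected on its rise, was higher in 3 of the 4 CS libraries than in every Ct library. Its level was 0.530, 0.5335, 0.5825 and 0.333 FPKM in Ct replicates 1 to 4 and 1.03, 0.912, 1.43 and 0.278 FPKM in CS replicates 1 to 4. The higher libraries were CS replicates 1 to 3, whereas CS replicate 4, at 8 reads, was the lowest of the 8. The log2 difference of 0.62, with an SE of 0.39, did not pass the test (limma p = 0.139, adjusted p = 0.979 over 14277 genes), and the two-sided exact permutation test over the 70 assignments of the libraries gave p = 0.286, where the smallest possible is 0.0286. Without CS replicate 4 the difference was 1.04 with an unadjusted limma p of 0.00292. Of all genes tested, 4.71% had an unadjusted limma p under 0.05, 2.58% as higher in CS and 2.13% as lower, and 0.007%, which is 1 gene and none of the 10, passed after adjustment. Rdh5 shares 5007 bases with Bloc1s1 on the same strand, and Bloc1s1 was listed at 0 to 0.0795 FPKM. How reads that fit both genes were counted was not given in the sources used here. They may count for either gene or for neither, so the level of Rdh5 may be too low.

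**Figure D1:**
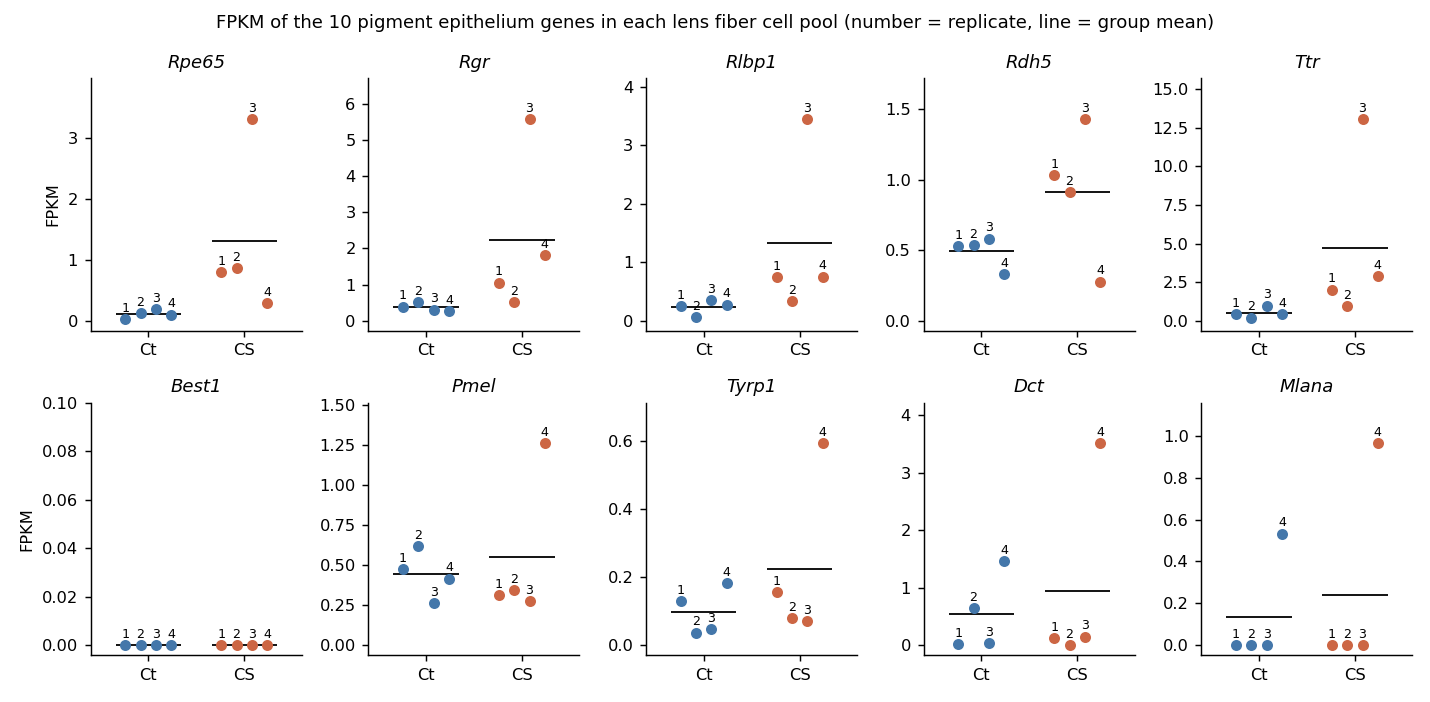
Level in FPKM (vertical axis, its own range for each gene) of the 10 genes in each library, Ct in blue and CS in orange, with the replicate number above each point and a line at the group mean. Rpe65, Rgr, Rlbp1, Rdh5 and Ttr are highest in CS replicate 3, Pmel, Tyrp1, Dct and Mlana in CS replicate 4, and Best1 is at 0 in all 8 libraries.

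The genes of melanin synthesis and of the melanosome did not separate the groups. Pmel (chr10:128704195-128720238, plus strand), the highest of them in most libraries, had 0.472, 0.618, 0.2625 and 0.415 FPKM in Ct replicates 1 to 4 and 0.3115, 0.346, 0.2745 and 1.26 FPKM in CS replicates 1 to 4. Apart from CS replicate 4, its CS libraries lay within the Ct range, and the log2 difference was 0.07 with an SE of 0.42 (limma p = 0.871, adjusted p = 0.996, exact permutation p = 0.943). Tyrp1 (chr4:80834123-80851719, plus strand) had 0.129, 0.0372, 0.0474 and 0.183 FPKM in Ct and 0.157, 0.0796, 0.0717 and 0.595 FPKM in CS, in the same order of replicates, on 2 to 35 reads. Again CS replicate 4 alone exceeded every Ct library, and the log2 difference was 0.52 with an SE of 0.54 (limma p = 0.356, adjusted p = 0.982, exact permutation p = 0.429). The Ct mean of Tyrp1, 0.0992 FPKM, was under the minimum, which it passed through the CS libraries.

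Dct (chr14:118012790-118052244, minus strand) and Mlana (chr19:29697824-29708634, plus strand) had most of their reads in few libraries. Dct had 0.0222, 0.650, 0.0380 and 1.47 FPKM in Ct replicates 1 to 4 and 0.126, 0, 0.151 and 3.52 FPKM in CS replicates 1 to 4. It was thus highest in replicate 4 of each group, at 60 reads in Ct and 172 reads in CS, and between 0 and 29 reads in the other 6 libraries. Mlana was listed at 0 in 6 libraries and had 0.532 FPKM in Ct replicate 4 and 0.9645 FPKM in CS replicate 4, on 6 and 13 reads. For these 2 genes the log2 differences between groups, 0.01 with an SE of 1.10 for Dct and 0.19 with an SE of 0.90 for Mlana, were far smaller than their errors (limma p = 0.992 and 0.839, adjusted p = 0.9999 and 0.996, exact permutation p = 1.0 for both). Pmel overlaps Cdk2 and Dgka, and Dct overlaps 4930435M08Rik, in each case on the opposite strand, and since the strand setting of the count was not given in the sources used here, reads of such pairs cannot be told apart.

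The library with the highest value was not the same for the 2 kinds of gene. All 5 of Rpe65, Rgr, Rlbp1, Rdh5 and Ttr were highest in CS replicate 3, where 18.7% of the 14277 genes had their highest value, and all 4 of Pmel, Tyrp1, Dct and Mlana in CS replicate 4, where 11.4% had theirs. Since 4 of the first 5 genes were picked for their rise in CS libraries, nothing is read from their count against the share of all genes. The summed level of Rpe65, Rgr, Rlbp1 and Ttr was 1.13, 0.922, 1.84 and 1.10 FPKM in Ct replicates 1 to 4 and 4.63, 2.68, 25.4 and 5.775 FPKM in CS replicates 1 to 4. That of Pmel, Tyrp1, Dct and Mlana was 0.624, 1.305, 0.348 and 2.60 FPKM in Ct and 0.594, 0.425, 0.497 and 6.33 FPKM in CS, in the same order. In CS replicate 3, with the highest retinoid sum, the melanin sum was within the range of the Ct libraries. The ratio of the first sum to the second ran from 0.423 in Ct replicate 4 to 51.1 in CS replicate 3, and in CS replicate 4 it was 0.912, below the ratios of Ct replicates 1 and 3.

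The make-up of each sum varied as well. Rpe65 made up 32.3% of the retinoid sum in CS replicate 2 but 4.996% in CS replicate 4, and between 2.78% and 13.7% in the Ct libraries. Ttr made up between 22.5% and 53.7% of it over all 8 libraries. Within the melanin sum, the share of Pmel was 15.99% in Ct replicate 4 and 19.9% in CS replicate 4, and in the other 6 libraries at least 47.4%. Dct made up 56.5% and 55.5% of the melanin sum in those 2 libraries, in which Mlana was also found. In Ct replicate 2, where Mlana was at 0, the share of Dct was 49.8%. Over the 8 libraries Rdh5 was correlated with Rpe65 at r = 0.80, with Rgr at 0.49, with Rlbp1 at 0.55, with Ttr at 0.53 and with Mlana at -0.76, and Dct with Mlana at r = 0.88, on the log2 scale and as a description, since these values rest on few reads and share their libraries.

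**Figure D2:**
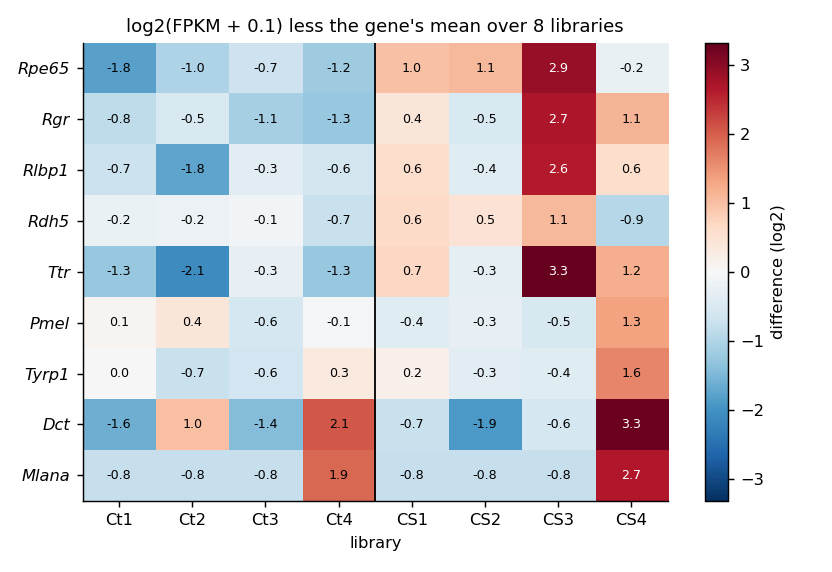
Difference of each gene's log2(FPKM + 0.1) from its own mean over the 8 libraries (colour and number), with genes as rows and libraries as columns and a line between Ct and CS. Ttr, Rpe65, Rgr and Rlbp1 are reddest in CS replicate 3, whereas Dct and Mlana are reddest in replicate 4 of both groups. Best1, at 0 throughout, is left out.

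Single libraries bore on these differences. Without CS replicate 3, the log2 differences of Rpe65, Rgr, Rlbp1 and Ttr were 1.77, 1.26, 1.11 and 1.74, and since the genes were picked for their rise, nothing is read from the direction of these values. Without CS replicate 4, that of Pmel turned from 0.07 to -0.36, that of Dct from 0.01 to -1.07 and that of Mlana from 0.19 to -0.665, and that of Tyrp1 was 0.07. None of these 4 melanin genes passed an unadjusted limma p of 0.05 with or without that library.

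**Figure D3:**
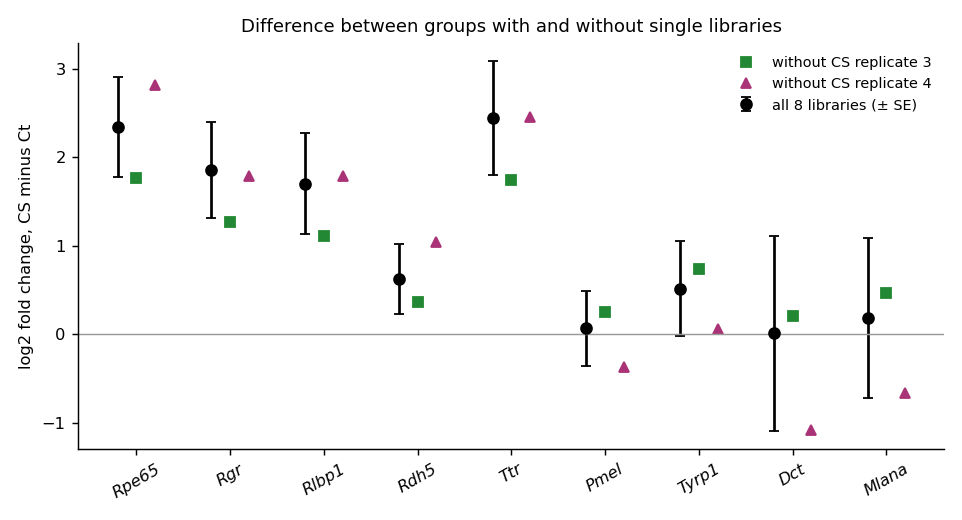
Difference between groups, CS minus Ct, on the log2(FPKM + 0.1) scale (vertical axis) for 9 genes, with all 8 libraries (circles, bars are the SE), without CS replicate 3 (squares) and without CS replicate 4 (triangles). Rpe65, Rgr, Rlbp1 and Ttr lie above 0 in each case, while Pmel, Dct and Mlana lie below 0 once CS replicate 4 is left out.

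The windows before the start of transcription of Rpe65, Rgr, Rlbp1 and Dct are shown. The first 3, picked for their rise, were highest in CS replicate 3, and Dct was highest in CS replicate 4. Over the 8 libraries Dct had r of -0.23 with Rpe65, 0.145 with Rgr and -0.04 with Rlbp1 on the log2 scale. The windows were taken from RefSeq (GRCm38.p6), whose table held 7 of the 10 genes, and run 5′ to 3′ on the strand of the gene, ending before the earliest annotated start. The window of Rpe65 is chr3:159598931-159599174 on the plus strand (244 bases), and on the minus strand lie those of Rgr, chr14:37049015-37049264 (250 bases), Rlbp1, chr7:79387049-79387277 (229 bases), and Dct, chr14:118052247-118052496 (250 bases). Capitals mark matches to CATGTG, a form of the E-box that is bound by the melanocyte and pigment epithelium factor MITF, and to TAATCC, a core bound by OTX2 and CRX, each searched on both strands (reverse complements CACATG and GGATTA), and in these windows no match of one overlaps one of the other.
Rpe65: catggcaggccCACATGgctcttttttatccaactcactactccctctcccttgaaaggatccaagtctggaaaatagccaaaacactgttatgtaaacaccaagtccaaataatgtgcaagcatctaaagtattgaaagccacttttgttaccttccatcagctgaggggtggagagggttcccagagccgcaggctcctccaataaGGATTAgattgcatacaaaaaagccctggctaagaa
Rgr: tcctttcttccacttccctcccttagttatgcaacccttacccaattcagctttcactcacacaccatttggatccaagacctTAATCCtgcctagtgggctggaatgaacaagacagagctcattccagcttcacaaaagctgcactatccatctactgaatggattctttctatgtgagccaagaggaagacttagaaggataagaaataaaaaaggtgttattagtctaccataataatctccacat
Rlbp1: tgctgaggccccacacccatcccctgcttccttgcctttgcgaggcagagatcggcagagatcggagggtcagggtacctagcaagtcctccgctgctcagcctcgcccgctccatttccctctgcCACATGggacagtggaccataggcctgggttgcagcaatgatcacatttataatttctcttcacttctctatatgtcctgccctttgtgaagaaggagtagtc
Dct: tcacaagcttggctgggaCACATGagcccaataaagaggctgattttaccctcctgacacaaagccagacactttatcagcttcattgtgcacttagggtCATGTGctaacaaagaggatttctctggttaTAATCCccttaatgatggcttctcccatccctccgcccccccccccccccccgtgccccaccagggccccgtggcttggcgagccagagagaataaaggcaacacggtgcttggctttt
Over 250 bases before the RefSeq start, CATGTG was present in 4 of the 7 genes (Rpe65, Rlbp1, Tyrp1 and Dct) and in 12.25% of 32851 such windows of RefSeq. TAATCC was present in 4 of the 7 (Rpe65, Rgr, Best1 and Dct) and in 6.25% of all windows. Rpe65 and Dct thus held both motifs although their levels were highest in different libraries, and Best1, with TAATCC, was at 0. A match is a run of letters and shows no binding.

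Other genes of retinoid handling are read against the 2.58% of all tested genes that were higher in CS and the 2.13% that were lower. Of 10 partners, 7 reached the minimum of 0.1 FPKM and 1 of these was higher in CS at an unadjusted limma p under 0.05, with a median log2 difference of 0.06 against -0.0002 over all genes tested. That gene was Rbp3, which encodes the retinoid carrier of the space between photoreceptors and pigment epithelium and is made by photoreceptors. Its levels were 0.372, 0.298, 0.424 and 0.440 FPKM in Ct replicates 1 to 4 and 0.593, 0.796, 2.15 and 0.859 FPKM in CS replicates 1 to 4 (log2 difference 1.17, SE 0.34, limma adjusted p = 0.977), with no overlap. Rdh11, a retinol dehydrogenase, had a mean of 3.47 FPKM and a log2 difference of -0.10. Lrat, which makes the ester that RPE65 acts on, had a mean of 0.0569 FPKM and was not tested.

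Other markers of the pigment epithelium gave a similar count. Of 9 genes, 7 were tested and 1 was higher at the unadjusted p, with a median log2 difference of 0.485. It was Otx2, a transcription factor of the pigment epithelium that photoreceptors and bipolar cells also use, listed at 0, 0, 0.188 and 0.194 FPKM in Ct replicates 1 to 4 and at 0.249, 0.341, 0.213 and 0.749 FPKM in CS replicates 1 to 4 (log2 difference 1.40, SE 0.52, limma adjusted p = 0.979). With a Ct mean of 0.0955 FPKM, Otx2 passed the minimum through the CS libraries alone, so its call and the median over the tested genes are favoured by that filter. Otx2 was highest in CS replicate 4, whereas 4 of the 9 genes (Serpinf1, Slc16a8, Kcnj13 and Timp3) were highest in CS replicate 3, like Rpe65. Timp3, an inhibitor of metalloproteinases, and Mitf, a transcription factor of pigmented cells, were the highest of the list at means of 30.1 and 2.67 FPKM, and their log2 differences were 0.03 and -0.105. The summed level of the list was 31.9 to 35.95 FPKM in Ct and 32.3 to 39.4 FPKM in CS, most of it Timp3.

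Of 10 further melanosome genes, 6 were tested, with a median log2 difference of -0.07. At the unadjusted p none was higher in CS and 1 was lower, beside 2.58% and 2.13% of all genes tested. It was Oca2, a membrane protein of the melanosome, at 0.701, 1.02, 1.49 and 0.901 FPKM in Ct replicates 1 to 4 and 0.225, 0.821, 0.866 and 0.260 FPKM in CS replicates 1 to 4 (log2 difference -0.94, SE 0.395, limma adjusted p = 0.979). In CS replicate 4, where Pmel, Tyrp1, Dct and Mlana were highest, Oca2 was second lowest. Trpm1, a channel of melanocytes and bipolar cells, and Rab38, a trafficking protein of melanosomes, were the highest of the list at means of 1.32 and 0.8355 FPKM, with log2 differences of -0.02 and -0.47. Tyr, which encodes tyrosinase, was at most 0.182 FPKM, in CS replicate 4. Of 4 genes of melanocytes from the neural crest, 1 (Kit) was tested and did not pass (log2 difference -0.09), Ednrb had a mean of 0.0582 FPKM, and Sox10, a defining factor of these cells, was listed at 0 in CS replicate 4 and at 0.0815 FPKM in Ct replicate 4.

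Rod genes were highest in the same library as the retinoid genes. Of 16 rod photoreceptor genes, all of them tested, 12 were higher in CS at the unadjusted p and none was lower, with a median log2 difference of 1.46, and all 16 were highest in CS replicate 3. Over all genes tested, 2.58% were higher in CS and 18.7% were highest in that library. The rod genes Cnga1 and Rp1, with Ct means of 0.0916 and 0.0837 FPKM, passed the minimum through the CS libraries, as did Stra6, Serpinf1, Pou4f1 and Hbb-bt of the other lists. This rise was known from earlier results of these data when the list was written. The summed level of the 16 genes was 32.7, 27.0, 36.3 and 14.2 FPKM in Ct replicates 1 to 4 and 57.2, 74.2, 122.4 and 39.6 FPKM in CS replicates 1 to 4. Gnat1, the rod transducin subunit, had 9.15, 7.05, 10.1 and 1.805 FPKM in Ct replicates 1 to 4 and 16.7, 22.9, 36.0 and 10.2 FPKM in CS replicates 1 to 4, with a log2 difference of 1.70 and an SE of 0.50 (limma adjusted p = 0.971). The retinoid sum did not keep a fixed ratio to the rod sum, which was 0.0342 to 0.0772 in Ct and 0.0810, 0.0361, 0.208 and 0.146 in CS replicates 1 to 4, so that 3 of the 4 CS libraries exceeded every Ct library, a description of genes picked for their rise. The part of retinal RNA in the levels of Rpe65, Rgr, Rlbp1 and Ttr was not tested.

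Blood genes, like the melanin genes, were highest in CS replicate 4, with 1 exception (Alas2). The summed level of 5 of them was 1.73, 1.01, 0.265 and 0.284 FPKM in Ct replicates 1 to 4 and 0.500, 2.54, 4.23 and 22.8 FPKM in CS replicates 1 to 4. Of the 5, 4 were highest in CS replicate 4, but in Ct replicate 4, the Ct library with the most Dct and Mlana, the sum was the second lowest of the 8. Of 3 blood genes tested, 1, the hemoglobin gene Hba-a1, was higher at the unadjusted p (log2 difference 2.42, SE 1.02, limma adjusted p = 0.979), beside 2.58% of all genes tested. Hba-a1 had 0.407 and 0.310 FPKM in CS replicates 1 and 2, within the Ct range of 0 to 1.007 FPKM. In CS replicates 3 and 4 it had 2.02 and 9.46 FPKM. Hbb-bs was the highest on average and reached 11.1 FPKM in CS replicate 4. The part of blood or of tissue that carries it in the melanin values was not tested.

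**Figure D4:**
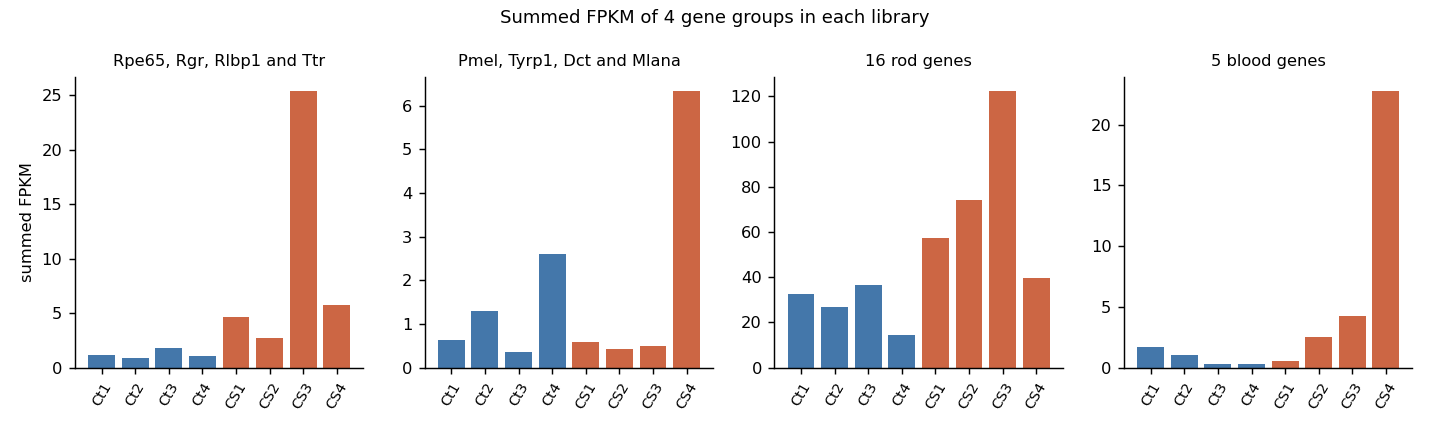
Summed FPKM (vertical axis, from 0, its own range in each panel) of 4 groups of genes in each library, Ct in blue and CS in orange. The sum of Rpe65, Rgr, Rlbp1 and Ttr and that of 16 rod genes are highest in CS replicate 3, and the sum of Pmel, Tyrp1, Dct and Mlana and that of 5 blood genes are highest in CS replicate 4.

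Lists of other cells of the eye are set beside the 4.71% of all tested genes that passed the unadjusted p in either direction. Of 12 genes of cones and inner retina, 5 were tested and 1, Calb2, was higher at the unadjusted p (log2 difference 1.765, SE 0.64, limma adjusted p = 0.979), though its Ct mean of 0.0703 FPKM was under the minimum, which it passed through the CS libraries. Arr3 of cones had a log2 difference of 0.27 and Cnga3 was listed at 0 in all 8 libraries. Of 7 Müller glia genes, 5 were tested and none passed. Its highest genes, Dkk3 and Apoe, had means of 449.4 and 8.91 FPKM and log2 differences of 0.02 and 0.055, and its defining markers Slc1a3 and Kcnj10 were at most 0.0549 and 0.0513 FPKM in any library, while Glul, Sox9 and Aqp4 of the same list had means of 6.14, 4.17 and 1.26 FPKM. Rgr and Rlbp1 are also genes of Müller glia, and their part in the result was not tested. Of 3 genes of the ciliary epithelium 2 were tested and 1, Optc, was lower at the unadjusted p (log2 difference -1.12, SE 0.45, limma adjusted p = 0.979), and Aqp1 had a log2 difference of -0.06. None of the 2 endothelial genes tested, Pecam1 and Plvap, passed, with log2 differences of -0.14 and -0.15. All 5 lens epithelium genes were tested and none passed. Foxe3 and Pax6, the highest of them, had log2 differences of -0.425 and -0.07. Their summed level with the other 3 was highest in Ct replicate 3 (108.4 FPKM), where 17.1% of all tested genes had the highest value of the 8 libraries. Among the Ct libraries, Rpe65, Rlbp1, Rdh5 and Ttr were also highest there. All of these but Rdh5 were picked for their rise in CS, and no link was tested.

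Among 9527 tested genes that averaged 1 FPKM or more, the 5 whose log2 values followed the mean profile of Rpe65, Rgr, Rlbp1 and Ttr most closely over the 8 libraries were Tmx3, Rtn2, Eif4a3, Naa38 and the rod gene Guca1a, with Pearson's r of 0.947, 0.945, 0.943, 0.937 and 0.930. Most of these ran through a narrow range. Eif4a3, which encodes an RNA helicase, had 15.9 to 17.0 FPKM in Ct and 17.2 to 20.3 FPKM in CS, whereas Guca1a, a guanylate cyclase activator of photoreceptors, had 0.924 to 1.40 FPKM in Ct and 2.18 to 6.94 FPKM in CS. The 5 nearest the mean profile of Pmel, Tyrp1, Dct and Mlana were Pdcd2l, Nrip1, Gpx3, Tmem14c and Naprt1, with r of 0.965, 0.95, 0.941, 0.937 and 0.934. Of these Gpx3, a secreted glutathione peroxidase, ranged from 0.351 to 1.56 FPKM in Ct, highest in replicate 4, and from 0.416 to 4.15 FPKM in CS, again highest in replicate 4. These correlations are descriptions over 8 libraries that share their preparation, and the first profile is highest in CS replicate 3 and the second in replicate 4 of each group.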

How the data were processed

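RNA-Seq of lens FC was measured in 8 libraries, 4 of CS-exposed and 4 of untreated Ct mice. The submitters' processing notes name GRCm38 (mm10), the aligner STAR 2.5 and the read counter HTSeq 0.6.1, and the authors deposited FPKM for each library. The table also holds the authors' group means, fold changes and p-values between groups, which were not used. Groups and replicate numbers came from the sample titles.

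Genes that averaged 0.1 FPKM or more over the 8 libraries were tested on log2(FPKM + 0.1) with limma 3.58.1 in R 4.3.3 (lmFit, eBayes with a trend, two-sided, Benjamini-Hochberg over 14277 genes), which the FPKM unit needs in place of a test on counts. A gene was counted as higher or lower at an unadjusted p under 0.05. The fit was tested on simulated data, drawn as normal log2 values with no floor and no counting error. That test does not cover genes of few reads, such as the members. Whole reads were recovered from the steps of the FPKM values for 97.6% of the tested genes (13940 of 14277, within 0.02 reads and up to 5000 reads for the smallest value). Poisson intervals (95%) of reads cover counting error only. Positions and overlaps came from GENCODE M21, promoter windows from RefSeq, and other values from scipy 1.17.1, pandas 2.3.3 and numpy 2.4.6 in Python 3.11.15, with figures from matplotlib 3.10.9.

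The members and the gene lists were chosen with earlier results of these data known. Named are the 10 genes and, of other lists, genes with an unadjusted p under 0.05, the 2 highest by mean FPKM, genes at 0 in all libraries and the 5 genes most like each profile. Lrat, Kcnj13, Tyr, Sox10, Slc1a3 and Kcnj10, as defining markers, and Enpp2, Slc16a8, Mertk, Serpinf1, Glul, Sox9, Aqp4, Alas2, Cnga1, Rp1, Stra6, Pou4f1 and Hbb-bt were added after their values were seen. A few genes that this rule names are not reported here. Lim2, listed more than once, was left out of the lens fiber list. Alternatives were other pseudocounts (1 and 0.01), other minimums, median centring, quantile normalization, eBayes without a trend or robust, the replicate number as a block, each library left out in turn, an exact permutation test and the ratio of group means. Limma-voom on the recovered reads, and leaving out CS replicates 3 and 4 together, were chosen after seeing the data.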

Additional observations from a re-analysis of the deposited data

Results flagged for a closer look

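Within the 4 libraries of a group, 7 of 18 sets of values held 1 library that stood apart by Dixon's test at 95%. Chance gives about 1 in 20 such sets, but 8 of the 18 belong to the genes picked for their values in CS libraries and the sets of Mlana hold 0 in all libraries but 1, so the count is not to be read against that share. In CS replicate 3 these were Rlbp1, at 3.45 FPKM, and Ttr, at 13.1 FPKM. In CS replicate 4 they were Pmel, at 1.26 FPKM, Tyrp1, at 0.595 FPKM, Dct, at 3.52 FPKM, and Mlana, at 0.9645 FPKM. In Ct replicate 4 it was Mlana, at 0.532 FPKM, the sole Ct library above 0 for that gene. The sets are not independent, since the genes share their libraries, and several of the values rest on few reads.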

How the results depend on the processing

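Of 237 values under alternatives, 209 were held to be the same, 14 changed sign, 12 moved and 2 came to pass the unadjusted threshold. For the 4 genes picked for their rise, 78 of 80 values kept their direction and moved by less than the spread. The other 2, of Rpe65, moved by more. For the members tested, 84 of 100 kept their direction and their side of the threshold, or moved by less than the spread. The 14 changes of sign and the 2 passes were among these 100. All other moves were of the count of genes at an adjusted p, judged by its ratio to the count reported. Several alternatives (the minimum, the variance model and the block) leave a log2 difference as it was by construction, and the 4 genes picked for their rise are no test of stability. The log2 difference of Rpe65 was 0.90 with a pseudocount of 1 and 3.55 as a log2 ratio of group means. Leaving out single libraries gave ranges of 0.37 to 1.04 for Rdh5, -0.36 to 0.26 for Pmel, -1.07 to 0.70 for Dct and -0.665 to 0.85 for Mlana. Without both CS replicates 3 and 4, Rdh5 was 0.87 with an unadjusted limma p of 0.0171, Pmel -0.30, Dct -1.32 and Mlana -0.665. Dct was -0.24 with a pseudocount of 0.01 and -0.20 with limma-voom. Rpe65, Rlbp1, Tyrp1, Dct and Mlana were below the pseudocount of 0.1 FPKM in some libraries, where depth limits their values. The count of genes at an adjusted p under 0.05, 1 as reported, was 0 with no minimum, 2 without a trend, 2 with limma-voom, 0 without both CS replicates 3 and 4, and 0 to 2 without single libraries, with the cause not tested. Deviations of same-numbered libraries had correlations of 0.001 to 0.099, with a mean of 0.051, against a mean of -0.017 for differently numbered libraries. Whether the numbers mark pairs was not given, and these values cannot decide it. With the replicate block, 754 genes had an unadjusted p under 0.05 against 673 as reported, and no call on the members changed.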
